A study of Sus scrofa with 9 samples.

Results

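A pair of machine perfusion routes were compared in porcine hearts donated after circulatory death. In Group 1 (NRP + HOPE 24 h, pigs 27, 28 and 30) the donor received 60 min of normothermic regional perfusion (NRP), which returns warm oxygenated blood to the organs inside the body, and the heart was then held for 24 h in hypothermic oxygenated perfusion (HOPE). In Group 3 (No NRP + HOPE 2 h, pigs 31, 33 and 34) the heart was procured directly, without NRP, and held in HOPE for 2 h. These 6 hearts are part of a series of 9 hearts, and 11164 of the 25149 genes in the table were tested because they reached 1 TPM (a transcript level scaled for gene length and for the total of the library) in at least 3 of the 6. All donors were female Yorkshire pigs of 40 to 50 kg and 4 to 6 months, with 1 heart per pig. Every heart had 15 min of untouched warm ischemia, and both groups were perfused at 8 °C with a solution that held packed red cells of the donor. Every heart was then rewarmed and paced on a bench-top circuit primed with donor whole blood (normothermic machine perfusion, NMP) for 2 h, and the apex was biopsied at the end of NMP. NRP and the duration of HOPE changed together, so their shares in any difference cannot be told apart. The remaining Group 2 (NRP + SCS 2 h, pigs 24, 25 and 29) had NRP followed by 2 h of static cold storage (SCS) at 4 °C and is used below for orientation only.

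Warm reperfusion of ischemic myocardium is known to start fast transcriptional programs. NF-kB, a family of transcription factors held in the cytoplasm by inhibitor proteins, is released by cytokines, toll-like receptors and oxidants, and it induces chemokines, endothelial adhesion molecules and its own inhibitors. HSF1 induces chaperones when proteins misfold, interferons induce antiviral genes through STAT proteins, and stretch of the muscle induces a set of Z-disc and fetal genes.

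The labels call the sample cardiomyocytes, whereas the material was a biopsy of whole myocardium. The 9 cardiomyocyte markers tested summed to 23440 to 44830 TPM in Group 1 and 28150 to 39350 TPM in Group 3, and endothelial and fibroblast markers were present in every heart. In such a mixture, fewer cells of a type and less RNA per cell cannot be told apart. The 13 mitochondrially encoded genes took 55.3%, 54.7% and 38.2% of all TPM in Group 1 and 55.0%, 49.1% and 44.8% in Group 3, in the order of the pig numbers above. The group means did not differ beyond the spread (49.4% ± 9.71 and 49.6% ± 5.09, SD, n = 3 each, exact permutation test, two-sided, p = 0.9, with 0.1 the smallest p possible). Pig 30 stood lowest in this share. Its median-of-ratios size factor, a summary of how high its genes stood in TPM, was 1.33, against 0.728 in pig 27 and 0.771 in pig 31, the lowest. Across the 11164 genes the root mean square difference between 2 hearts averaged 0.79 (log2 scale) between Groups 1 and 3, 0.79 within Group 1 and 0.78 within Group 3, so that the hearts of the 2 groups were no farther apart than hearts of 1 group. The sequencing depth is unknown because the values are TPM.

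Few genes passed the adjusted test. With an absolute log2 difference over 1 and a limma p that stayed under 0.05 after Benjamini-Hochberg adjustment over all genes tested, 4 genes were higher in NRP + HOPE 24 h (0.0358% of those tested) and 2 were lower (0.0179%), 6 in all (0.0537%). When the same fold was combined with p under 0.05 before adjustment, here called the unadjusted threshold, 190 genes were higher (1.70%) and 180 lower (1.61%). Of these, 15 higher and 21 lower genes, and 1 in each direction at the adjusted threshold, were under 1 TPM in every heart of the other group, so they entered the test only through the group where they were higher. The higher genes included 27 short RNA loci and 71 genes without a symbol, and the lower genes 20 and 72. An unadjusted p under 0.05 at any fold was reached by 686 genes (6.14%), and by 1335 after median-of-ratios scaling, 1334 after quantile normalization and 1060 without mitochondrially encoded genes. The median log2 difference over all genes was -0.03. Levels in all 3 NRP + HOPE 24 h hearts lay above all 3 No NRP + HOPE 2 h hearts for 329 genes (2.95%) and below them for 491 genes (4.40%). These counts depended on the scaling, and after median-of-ratios scaling they were 940 and 887. The adjusted calls depended on pig 30, because without this heart 0 genes were higher and 0 lower, with 115 and 342 at the unadjusted threshold.

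**Figure D1:**
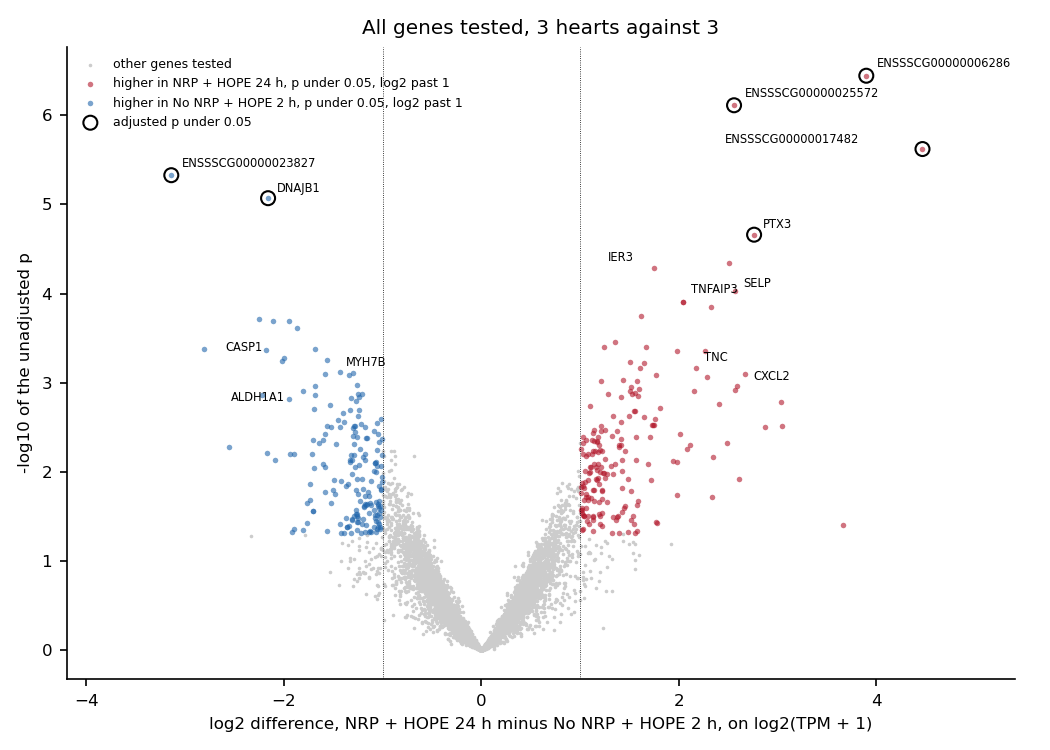
Each point is 1 of the 11164 genes tested, with the log2 difference between NRP + HOPE 24 h and No NRP + HOPE 2 h on the x axis and -log10 of the unadjusted limma p on the y axis. The 6 circled genes passed the adjusted test, 4 to the right and 2 to the left, and the coloured points are the 190 and 180 genes at the unadjusted threshold.

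Of the 6 genes at the adjusted threshold 2 had a symbol. PTX3 encodes pentraxin 3, a secreted pattern-recognition protein that also cross-links hyaluronan and is made by endothelium and stroma in inflammation. Its level was 71.9, 104 and 125 TPM in Group 1 and 10.2, 22.9 and 10.6 TPM in Group 3. The lowest Group 1 heart thus lay far above the highest Group 3 heart, and the log2 difference was 2.76 (SE 0.44, adjusted p = 0.041 by limma). DNAJB1, the HSP40 co-chaperone that passes unfolded clients to HSP70, went the other way. DNAJB1 was at 45.5, 38.4 and 43.8 TPM in Group 1 and 310, 123 and 189 TPM in Group 3, with a log2 difference of -2.16 (SE 0.32, adjusted p = 0.019 by limma). The Group 1 values lay within a narrow band (42.6 ± 3.72 TPM, SD, n = 3), and Group 3 was spread more widely (207 ± 95.0 TPM, SD, n = 3). The direction of both genes held in every alternative, but over the 12 alternative settings the adjusted p of PTX3 ran from 0.0025 to 0.18, and it stayed under the threshold in 6. With 1 heart left out at a time, PTX3 stayed called in 1 of 6 fits, the one without pig 33, with an adjusted p of up to 0.37. DNAJB1 stayed called in 7 of the 12 settings, with 0.12 after median-of-ratios scaling, and in 3 of the 6 fits, all but those without pigs 28, 30 or 34.

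The other 4 genes carry an Ensembl identifier only, and the tables used here pair none of them with a name. ENSSSCG00000006286 was at 28.1, 58.4 and 34.2 TPM in Group 1 against 1.67, 3.38 and 0.568 TPM in Group 3 (log2 difference 3.90, SE 0.43, adjusted p = 0.0040 by limma). ENSSSCG00000017482 was at 46.1, 58.1 and 37.2 TPM against 0.390, 4.44 and 0.305 TPM (log2 difference 4.47, SE 0.58, adjusted p = 0.0089 by limma). In the NRP + SCS 2 h hearts the first was at 44.1, 59.0 and 24.2 TPM and the second at 18.9, 35.5 and 6.44 TPM, the last value close to the highest of Group 3. ENSSSCG00000025572, named after its values were seen, was at 4.76, 4.13 and 5.91 TPM in Group 1 and listed at 0 in the 6 hearts of the other groups. ENSSSCG00000023827 was listed at 0 in all 3 Group 1 hearts and was at 6.58, 13.7 and 5.13 TPM in Group 3. No fold or p is given for the last 2 genes, since a listed 0 in a TPM table has no known floor and both met the filter only through the group where they were higher. ENSSSCG00000006286 kept its call in all 12 alternative settings and without each heart other than pig 30. ENSSSCG00000017482 kept its call in 7 of 12 and lost it without pig 28 or pig 30.

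Several NF-kB genes were higher in NRP + HOPE 24 h. Of 26 tested genes of the NF-kB list (subunits, feedback inhibitors and receptors), 7 were higher and 0 lower at the unadjusted threshold, beside 1.70% and 1.61% of all genes, and 20 had a positive difference. The median log2 difference of the list was 0.54, beside -0.03 over all genes. The medians of the list by heart overlapped, with pig 33 (0.10) above pig 27 (-0.06) relative to the mean of the 6 hearts. In 10 of the 26, all Group 1 hearts lay above all Group 3 hearts, and in 0 below, beside 2.95% and 4.40% of all genes. Without pig 30, 4 were higher (median 0.38), and with array weights also 4. None of these members passed the adjusted test.

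The largest difference in this list was in TNFAIP3 (A20), the deubiquitinase that shuts NF-kB signaling off. It was at 28.7, 57.0 and 42.9 TPM in Group 1 and 4.94, 13.9 and 11.3 TPM in Group 3 (log2 difference 2.04, SE 0.39, unadjusted p = 0.00012, adjusted p = 0.13 by limma). IER3, an immediate early NF-kB target that limits cell death, was at 360, 710 and 596 TPM against 136, 210 and 139 TPM (1.75, SE 0.30, unadjusted p = 5.1e-05). In both genes the groups were separated by a clear gap. PTGS2 (cyclooxygenase-2, the inducible enzyme of prostaglandin synthesis) was at 30.4, 124 and 32.6 TPM against 9.57, 37.5 and 4.79 TPM (log2 difference 1.94, SE 0.62, unadjusted p = 0.0076), and here pig 33 lay above 2 of the Group 1 hearts. NFKB1, which encodes the p105 precursor of the p50 subunit, was at 10.6, 15.3 and 25.4 TPM against 4.40, 9.49 and 3.68 TPM (1.41, SE 0.39, unadjusted p = 0.0028). The remaining 3 of the 7 are named because their number is small. TNIP1, which helps A20 bind its targets, had a log2 difference of 1.21 (SE 0.29), the endotoxin receptor TLR4 of 1.13 (SE 0.32), and CD83, an NF-kB target of activated dendritic and other cells, of 1.11 (SE 0.37). In TNIP1, TLR4 and CD83 the groups did not overlap, but without pig 30 their log2 differences were 0.96, 0.90 and 0.70, all short of the fold.

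Chemokines followed in part. Of 15 tested chemokine and cytokine genes, 5 were higher and 1 was lower at the unadjusted threshold, beside 1.70% and 1.61% of all genes, and the median log2 difference was 0.45, with 8 members positive and 7 negative. This median was not stable, at 0.10 without pig 31 and 0.06 with array weights. CXCL2, a chemokine that draws neutrophils through CXCR2, was at 804, 1468 and 202 TPM in Group 1 and 111, 144 and 56.1 TPM in Group 3. The groups did not overlap, although pig 30 stood far nearer to Group 3 than the other Group 1 hearts (log2 difference 2.67, SE 0.63, unadjusted p = 0.00080). AMCF-II, a porcine CXC chemokine active on neutrophils, was at 7.65, 83.4 and 6.31 TPM against 1.18, 3.38 and 0 TPM (3.04, SE 0.85, unadjusted p = 0.0030). CSF3, the growth factor of granulocytes, was at 4.29, 31.5 and 4.85 TPM against 0, 0.817 and 0 TPM. CSF3 met the filter only through Group 1, so it had to be higher there to be among the 5, and no fold or p is given. Pig 28 was by far the highest heart for AMCF-II and CSF3, and in 7 of the 15 genes it was the highest of the 6 hearts. Without pig 28 the log2 difference of AMCF-II was 1.91. IL1A, the alarmin interleukin-1 alpha, and CXCL8 (interleukin-8) completed the 5, with log2 differences of 1.65 (SE 0.45) and 1.59 (SE 0.61). For CXCL8 pig 33 (19.6 TPM) lay above pig 27 (10.8 TPM), and without pig 28 its log2 difference was 0.87. TNFSF10, the death ligand TRAIL, was the gene on the lower side, at 7.03, 20.6 and 10.4 TPM in Group 1 and 11.5, 31.8 and 167 TPM in Group 3 (log2 difference -1.71, SE 0.69, unadjusted p = 0.028). That difference rested on pig 34, and without it the log2 difference of TNFSF10 was -0.69.

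Summed leukocyte markers overlapped between the groups. The 9 macrophage and monocyte markers listed summed to 66.8 to 162 TPM in Group 1 and 110 to 271 TPM in Group 3, and 8 neutrophil markers to 3.08 to 7.40 TPM and 1.82 to 6.22 TPM. Of the neutrophil markers, the receptor CSF3R and the granule enzyme MPO were listed at 0 in all 6 hearts. Of the macrophage markers, the Fc receptor FCGR1A was lower in Group 1 without overlap, while ADGRE1, at 1.27 TPM or less in these 6 hearts and too low to be tested, was higher without overlap. The part of leukocytes in these results was not tested.

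**Figure D2:**
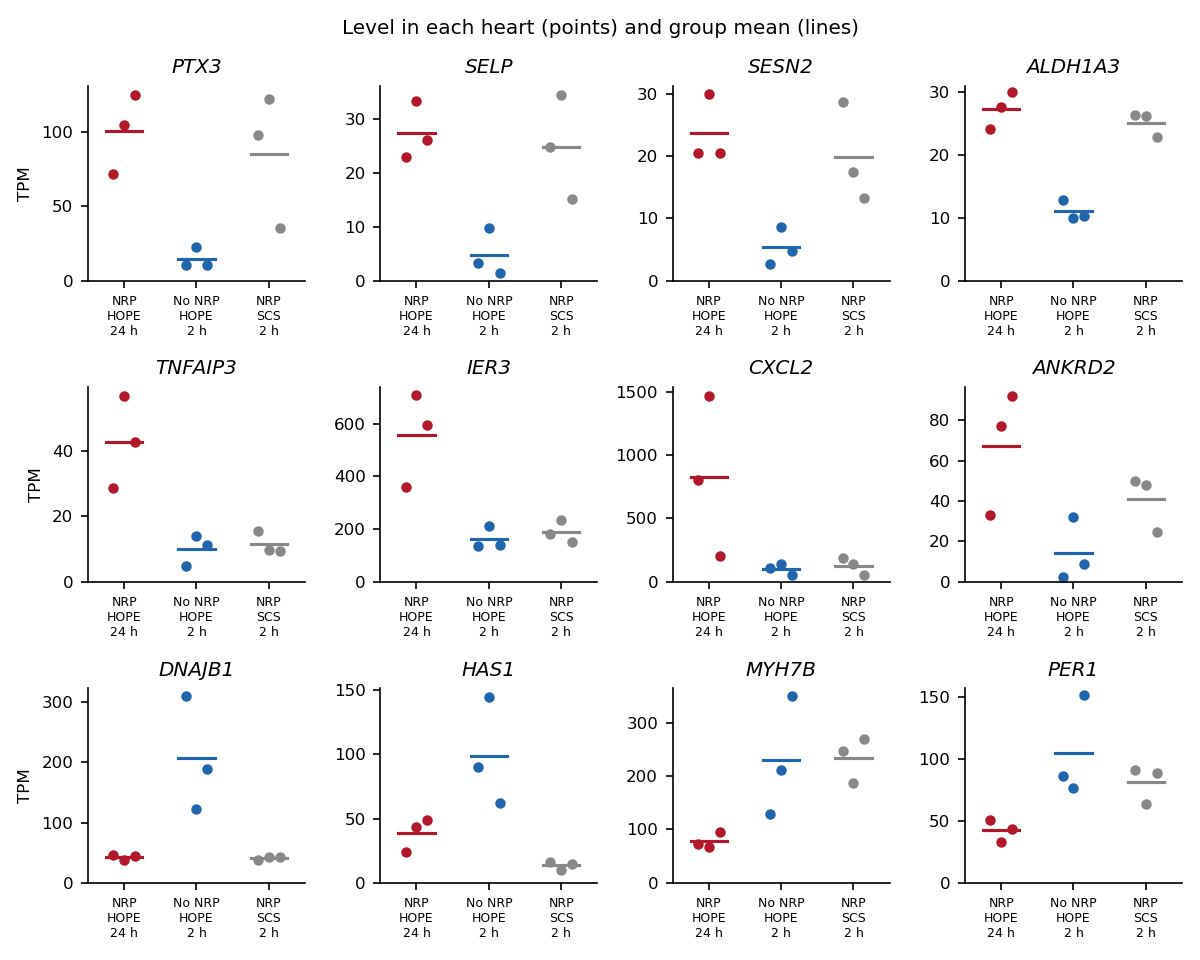
TPM of 12 genes in each heart, with 1 panel per gene, 3 points per group and a line at the group mean, on axes that start at 0. In the first 8 panels NRP + HOPE 24 h lay above No NRP + HOPE 2 h in every heart, and in the last 4 below it. The NRP + SCS 2 h hearts were near the Group 1 level for DNAJB1, above every Group 3 heart for PTX3 and SELP, and near the Group 3 level for TNFAIP3, IER3 and CXCL2.

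A pair of endothelial adhesion genes was higher in Group 1. Of 17 tested genes for adhesion and coagulation, 2 were higher and 0 lower at the unadjusted threshold, beside 1.70% and 1.61% of all genes, with a median log2 difference of 0.08 that was -0.27 without pig 30. SELP encodes P-selectin, which catches rolling leukocytes on activated endothelium and platelets. It was at 22.8, 33.2 and 26.0 TPM in Group 1 and 3.25, 9.70 and 1.34 TPM in Group 3 (log2 difference 2.56, SE 0.47, unadjusted p = 9.4e-05, adjusted p = 0.12 by limma). VCAM1, the ligand for leukocyte integrin VLA-4, was at 127, 175 and 184 TPM against 32.9, 62.0 and 124 TPM (1.32, SE 0.38, unadjusted p = 0.0039). The gap was wide for SELP, while pig 34 reached almost the lowest Group 1 value for VCAM1. Without pig 31 the log2 difference of VCAM1 was 0.86, short of the fold, and 1 gene of the list was higher. PLAT, the plasminogen activator released by endothelium, had a log2 difference of 0.89 (SE 0.33, unadjusted p = 0.019), short of the fold. Anticoagulant thrombomodulin (THBD) was at 88.7, 151 and 162 TPM against 190, 352 and 197 TPM (-0.86, SE 0.31, unadjusted p = 0.015), also short of the fold and without overlap. The 10 general endothelial markers listed summed to 437 to 928 TPM in Group 1 and 442 to 930 TPM in Group 3. These sums overlapped but ranged widely within each group. Of the 10 markers 0 passed the unadjusted threshold, beside 1.70% and 1.61% of all genes. Markers of platelets, which also carry P-selectin, summed to 3.96 to 5.97 TPM and 4.10 to 6.37 TPM. Of these, TUBB1 was higher in Group 1 without overlap (1.14 to 1.60 TPM against 0.689 to 0.902 TPM). GP1BB (0.626 to 2.56 TPM against 1.17 to 3.97 TPM) and ITGA2B overlapped. The parts of endothelial cells and platelets in these results were not tested.

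The hyaluronan list holds PTX3. Of its 12 tested genes 1 was higher (PTX3) and 1 lower (HAS1) at the unadjusted threshold, beside 1.70% and 1.61% of all genes, and the median log2 difference was -0.38. HAS1, an enzyme that spins hyaluronan at the plasma membrane, was at 24.1, 43.5 and 49.0 TPM in Group 1 and 90.3, 145 and 62.0 TPM in Group 3 (log2 difference -1.30, SE 0.37, unadjusted p = 0.0032). ITIH3, a heavy chain that is transferred onto hyaluronan, was lower by less than the fold (-0.98, SE 0.44, unadjusted p = 0.045), and the hyaluronan receptor CD44 had a difference of 0.78 (SE 0.41, unadjusted p = 0.075). Without pig 33, 0 genes of the list were lower and 2 higher. Among 28 matrix genes, 2 were higher and 0 lower, beside the same 1.70% and 1.61%, with a median of 0.11. TNC (tenascin-C), a matrix glycoprotein that reappears in injured myocardium, was at 9.19, 14.3 and 14.4 TPM against 0.567, 6.04 and 1.38 TPM (2.17, SE 0.50, unadjusted p = 0.00068). The protease gene ADAMTS9 was at 27.6, 58.2 and 52.95 TPM against 16.8, 32.3 and 14.8 TPM (1.10, SE 0.37, unadjusted p = 0.010), with pig 33 above pig 27.

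Apart from DNAJB1, 0 of the tested heat shock genes passed the unadjusted threshold. Of 20 tested genes of the list, which holds HSF1 and HSF2 as well as their targets, 0 were higher and 1 was lower at the unadjusted threshold, beside 1.70% and 1.61% of all genes, the median log2 difference was 0.05, and 10 members were positive and 10 negative. Inducible HSP70 (HSPA1A) and HSPA1L were listed at 0 in all 9 hearts, and HSPB1, CRYAB, SERPINH1 and DNAJB6 were not analysed here. DNAJB4, a related HSP40 gene, had a difference of 0.53 (SE 0.30, unadjusted p = 0.093), opposite in sign to DNAJB1. Among 21 genes of the unfolded protein and integrated stress response, 1 was higher and 0 lower, beside the same 1.70% and 1.61%, with a median of 0.05. This was SESN2 (sestrin 2), a stress-induced inhibitor of mTORC1. SESN2 was at 20.5, 29.9 and 20.5 TPM in Group 1 and 2.71, 8.63 and 4.69 TPM in Group 3 (2.04, SE 0.39, unadjusted p = 0.00012, adjusted p = 0.13 by limma). Of 16 NRF2 and antioxidant genes 0 passed in either direction, beside 1.70% and 1.61% of all genes. MT1A (metallothionein, a metal-binding scavenger) was nearest the fold at 0.96 (SE 0.41, unadjusted p = 0.032). Immediate early genes (24 tested, 0 higher, 0 lower, beside the same 1.70% and 1.61%, median -0.01) had FOSL1 at 0.83 (SE 0.38), DUSP10 at 0.89 (SE 0.38), the orphan nuclear receptor NR4A2 at -0.93 (SE 0.35) and FOS at -0.89 (SE 0.44). The FOS difference was -0.35 without pig 34.

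**Figure D3:**
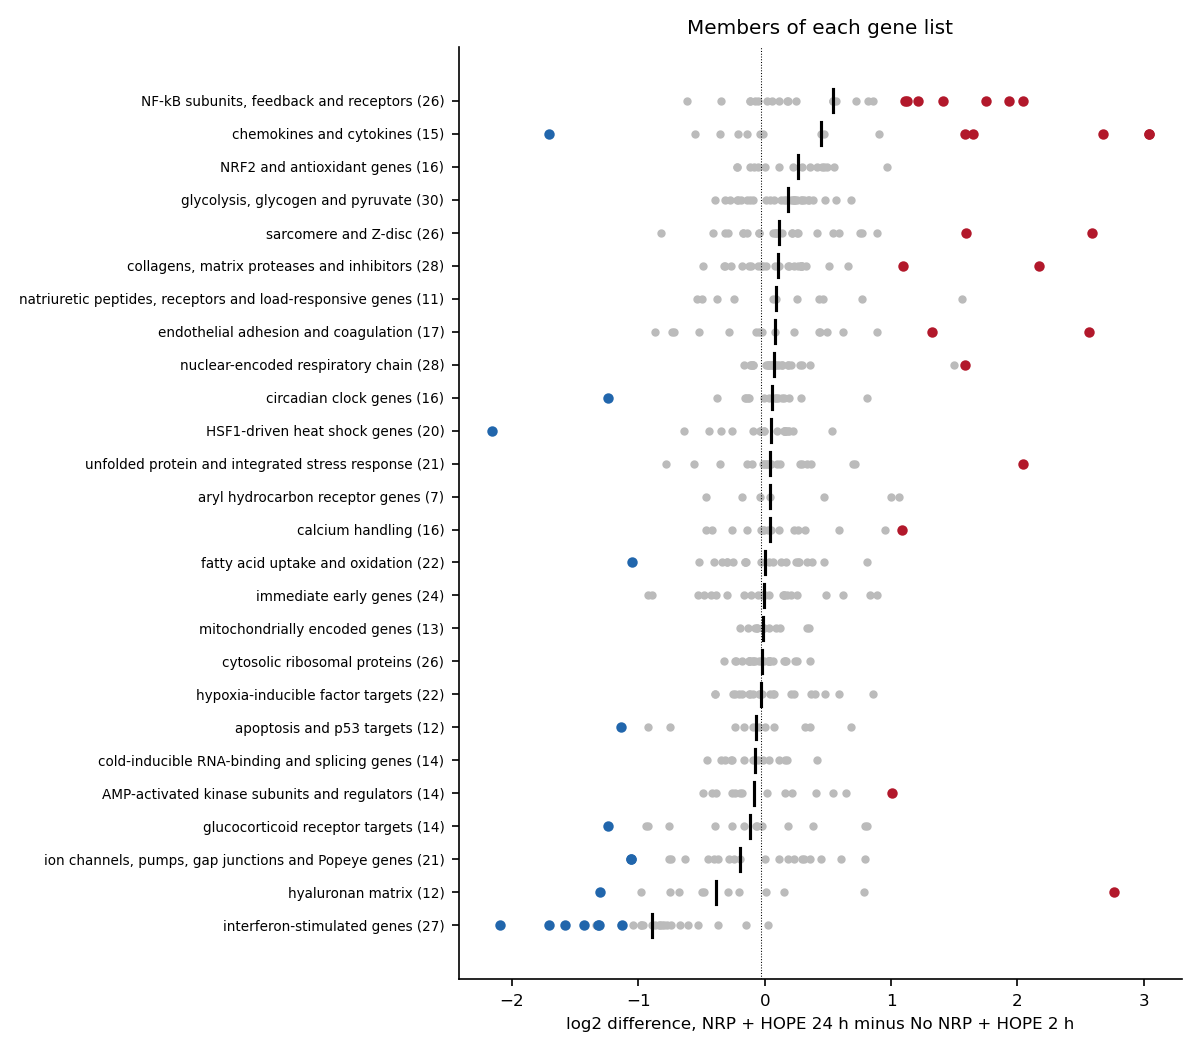
Log2 difference of each tested member of the 26 pathway lists (points, number tested in brackets), with the list median as a black bar and the median over all genes as a dotted line. Coloured points passed the unadjusted threshold. The NF-kB list (median 0.54) and the chemokine list (0.45) stood highest and the interferon-stimulated genes (-0.89) lowest.

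Interferon-stimulated genes were lower in Group 1, but through 1 heart. Of 27 tested genes, 0 were higher and 7 lower at the unadjusted threshold, beside 1.70% and 1.61% of all genes, 26 had a negative difference, and the median log2 difference was -0.89. Pig 34 was the highest of the 6 hearts in 26 of the 27 genes. ISG20, an exonuclease against viral RNA, was at 1.22, 2.59 and 4.11 TPM in Group 1 and 4.30, 9.98 and 53.2 TPM in Group 3 (-2.09, SE 0.67, unadjusted p = 0.0073). USP18, which removes the ubiquitin-like ISG15, was at 7.77, 16.5 and 15.2 TPM against 19.7, 26.3 and 117 TPM (-1.58, SE 0.52, unadjusted p = 0.0087). In both genes pigs 31 and 33 also lay above all Group 1 hearts, by far less than pig 34. For UBA7, which activates ISG15, and the antiviral GTPase MX1 the groups overlapped (log2 differences -1.70, SE 0.69, and -1.43, SE 0.62), with 106 TPM and 334 TPM in pig 34. Without pig 34 the median was -0.12, with 17 genes negative, 10 positive and 1 lower at the unadjusted threshold. Without pig 31, the lowest heart of Group 3 for this list, the median was -1.65 with 24 genes lower. With robust eBayes, without a filter on low values or without pig 27, 2 genes were lower. Pig 34 also held the highest summed macrophage and monocyte markers (271 TPM). FCGR1A, which interferon induces, was at 30.7 TPM in pig 34 and 1.42 to 4.51 TPM in the other 5 hearts. The part of macrophages in this result was not tested.

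CASP1, the inflammasome protease that matures interleukin-1 beta, was among the lower genes at low levels, at 0.251, 0.245 and 0.467 TPM in Group 1 and 1.90, 3.25 and 10.8 TPM in Group 3. All Group 1 values were under 1 TPM, so CASP1 met the filter only through Group 3 and no p is given. Its highest value was again in pig 34.

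**Figure D4:**
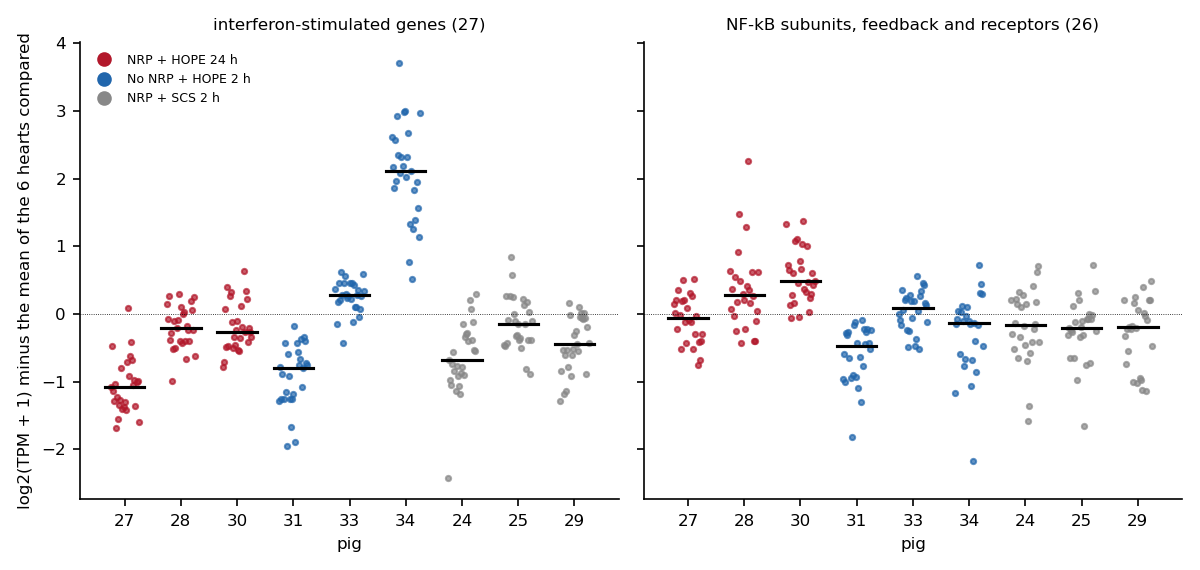
Each point is 1 gene in 1 heart, as log2(TPM + 1) minus the gene's mean over the 6 hearts compared, for the interferon-stimulated genes on the left and the NF-kB list on the right, with black bars at the median of each heart. On the left pig 34 stood at a median of 2.12 while the other 8 hearts stood between -1.07 and 0.28, and on the right the Group 1 hearts stood at -0.06, 0.28 and 0.48 and the Group 3 hearts at -0.48, 0.10 and -0.14.

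In the sarcomere and Z-disc list a pair of genes was higher. Of 26 tested, 2 were higher and 0 lower at the unadjusted threshold, beside 1.70% and 1.61% of all genes, and the median log2 difference was 0.12. ANKRD2, a stretch-responsive protein that shuttles between the Z-disc or I-band and the nucleus, was at 33.1, 76.9 and 92.0 TPM in Group 1 and 2.57, 32.0 and 8.60 TPM in Group 3 (2.59, SE 0.63, unadjusted p = 0.0011). PDLIM4, which binds alpha-actinin, was at 19.3, 20.1 and 51.0 TPM against 6.61, 8.60 and 10.1 TPM (1.59, SE 0.39, unadjusted p = 0.0012). For ANKRD2 pig 33 came close to pig 27, whereas PDLIM4 showed a wider gap. FLNC (filamin C), a Z-disc crosslinker of actin, was at 588, 582 and 1156 TPM against 272, 425 and 534 TPM (0.89, SE 0.32, unadjusted p = 0.014). ANKRD1 (CARP), the load-responsive relative of ANKRD2, had a difference of 0.77 (SE 0.28, unadjusted p = 0.017), and cardiac actin ACTC1 of 0.76 (SE 0.35, unadjusted p = 0.048). FLNC, ANKRD1 and ACTC1 were short of the fold. NPPB, the stretch-induced natriuretic peptide BNP, was at 9.88, 49.4 and 76.9 TPM against 2.56, 32.8 and 12.8 TPM, and this difference was within the spread (1.56, SE 0.78, unadjusted p = 0.064). Without pig 30 the median of the sarcomere list was -0.15 with 16 members negative, beside -0.23 over all genes, and 2 were higher at the unadjusted threshold.

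Of 16 calcium-handling genes 1 was higher and 0 lower at the unadjusted threshold, beside 1.70% and 1.61% of all genes, with a median of 0.04, 9 positive and 7 negative. CASQ1, the skeletal calsequestrin, was at 3.59, 7.20 and 14.1 TPM against 3.38, 3.16 and 2.25 TPM (1.09, SE 0.48, unadjusted p = 0.038), and the cardiac CASQ2 was at 13.7, 25.2 and 50.03 TPM against 7.54, 16.2 and 17.5 TPM (0.95, SE 0.43, unadjusted p = 0.044). CASQ1 was the gene at the unadjusted threshold, CASQ2 was short of the fold, and without pig 28, without pig 30 or without a filter 0 of the 16 passed. Among 21 ion channel, pump and gap junction genes 0 were higher and 2 lower, beside 1.70% and 1.61% of all genes, with a median of -0.19. Among the lower genes was ATP1B4, at 5.20, 8.64 and 2.88 TPM against 7.0, 12.2 and 18.8 TPM (-1.06, SE 0.44, unadjusted p = 0.030). ATP1B1, the beta-1 subunit of the sodium pump, went the other way by less than the fold (0.79, SE 0.34, unadjusted p = 0.034). MYH7B, a slow myosin gene, was at 73.0, 67.8 and 94.2 TPM in Group 1 and 128, 210 and 350 TPM in Group 3 (-1.43, SE 0.33, unadjusted p = 0.00076).

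Among 28 nuclear-encoded respiratory chain genes 1 was higher and 0 lower, beside 1.70% and 1.61% of all genes, with a median of 0.07 and 22 positive, and pig 30 was the highest heart in 27 of the 28. The higher gene, UQCRC2 (a core subunit of complex III), was at 60.9, 65.0 and 116 TPM against 26.2, 23.2 and 26.1 TPM (1.58, SE 0.40, unadjusted p = 0.0014). The narrow Group 3 band of UQCRC2 lay below all Group 1 hearts. In glycolysis, glycogen and pyruvate metabolism (30 genes, median 0.19), hypoxia-inducible factor targets (22, median -0.03), mitochondrially encoded genes (13, median -0.01) and cytosolic ribosomal proteins (26, median -0.02), 0 genes passed the unadjusted threshold in either direction, beside 1.70% and 1.61% of all genes. VEGFA, the hypoxia target nearest the fold, had a difference of 0.85 (SE 0.40, unadjusted p = 0.053). Of 22 genes of fatty acid use 1 was lower, the lipid-droplet protein PLIN5, at 0.539, 0.761 and 2.76 TPM against 3.04, 2.56 and 5.31 TPM (-1.05, SE 0.41, unadjusted p = 0.023), beside 1.61% of all genes, and without pig 27, 28 or 34 0 of the 22 were lower. PDK4, the kinase that restrains pyruvate dehydrogenase, was at 198, 376 and 270 TPM against 208, 102 and 175 TPM (0.81, SE 0.31, unadjusted p = 0.021). Of 14 AMP-activated kinase genes 1 was higher, the beta-2 subunit PRKAB2, at 3.91, 5.03 and 7.37 TPM against 2.07, 1.99 and 2.32 TPM (1.01, SE 0.41, unadjusted p = 0.027), beside 1.70% of all genes, and without pig 30, 31 or 33 0 of the 14 were higher. The gamma-2 subunit PRKAG2 was at 52.1 to 127 TPM in Group 1 and 40.8 to 59.3 TPM in Group 3, both below the 238 to 297 TPM of the NRP + SCS 2 h hearts.

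PER1, a repressor of the circadian clock that glucocorticoids also induce, was at 50.6, 32.6 and 43.7 TPM in Group 1 and 85.9, 76.4 and 151 TPM in Group 3 (-1.24, SE 0.31, unadjusted p = 0.0015). It was the only gene past the unadjusted threshold among 16 clock genes (median 0.05) and among 14 glucocorticoid receptor targets (median -0.12), beside 1.70% higher and 1.61% lower over all genes. Without pig 34 its log2 difference was -0.94, short of the fold, and 1 of the clock genes was higher. Among the glucocorticoid receptor targets, TSC22D3 (GILZ), an anti-inflammatory target, was lower by less than the fold (-0.76, SE 0.32, unadjusted p = 0.032) and ANGPTL4, an inhibitor of lipoprotein lipase, was at 232, 184 and 244 TPM against 127, 126 and 123 TPM (0.79, SE 0.36, unadjusted p = 0.045). TSC22D3 and ANGPTL4 were named after their values were seen. Of 7 genes of the aryl hydrocarbon receptor, which senses planar ligands, 0 passed, beside 1.70% and 1.61% of all genes. TIPARP, a receptor target that feeds back on it, was at 27.2, 77.8 and 60.6 TPM against 14.7, 32.3 and 31.8 TPM (0.997, SE 0.41, unadjusted p = 0.029). CYP1A1 ranged from 32.8 to 72.1 TPM in Group 1 and from 9.12 to 104 TPM in Group 3. Among 12 apoptosis and p53 targets 1 was lower (PHLDA3, -1.14, SE 0.47), beside 1.61% of all genes, and 0 were lower without pig 27, 28 or 34, with PHLDA3 at -0.66 without pig 28. Among 14 cold-inducible genes 0 passed in either direction, beside 1.70% and 1.61% of all genes.

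The other higher genes with a symbol came from several functions. ALDH1A3, which makes retinoic acid, was at 24.2, 27.7 and 30.0 TPM in Group 1 and 12.8, 9.94 and 10.3 TPM in Group 3 (1.24, SE 0.27, unadjusted p = 0.00040). Its relative ALDH1A1 was on the other side at low levels, with 0.240, 0.781 and 2.23 TPM against 5.18, 3.61 and 7.42 TPM (-1.69, SE 0.42, unadjusted p = 0.0014). Thus 2 enzymes of the same reaction stood on opposite sides. ARHGEF2 (GEF-H1), a microtubule-bound activator of RhoA, was at 73.2, 85.7 and 122 TPM against 29.6, 41.3 and 25.6 TPM (1.51, SE 0.34). SMAD3, the mediator of TGF-beta signaling, was at 27.5, 40.6 and 78.1 TPM against 11.1, 20.1 and 12.1 TPM (1.60, SE 0.37). THOC6, of the complex that exports mRNA, was at 177, 197 and 241 TPM against 52.5, 67.5 and 118 TPM (1.43, SE 0.34), and RXFP4, a relaxin-family receptor, at 3.63, 4.53 and 9.71 TPM against 0.763, 1.77 and 0.425 TPM (1.77, SE 0.42).

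Several of these genes overlap or adjoin others in the RefSeq annotation of Sscrofa11.1. THOC6 overlaps HCFC1R1, which showed nearly the same difference (1.41, SE 0.36), RXFP4 is the neighbour of ARHGEF2, SMAD3 overlaps AAGAB, PTX3 lies within VEPH1, and MYH7B overlaps TRPC4AP and MIR499. The counting is not stated to use strand, so reads shared by such pairs cannot be told apart.

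The other lower genes were mostly expressed at low levels. CDO1, which starts cysteine breakdown to taurine, was at 3.13, 2.62 and 2.46 TPM in Group 1 and 8.90, 8.77 and 7.62 TPM in Group 3 (-1.34, SE 0.31), and TCEAL9, a small X-linked nuclear protein, at 3.54, 3.54 and 2.53 TPM against 9.80, 10 and 8.16 TPM (-1.30, SE 0.30). These genes had tight values in both groups. CITED1, a transcriptional co-regulator, was at 20.0, 15.0 and 22.0 TPM against 37.0, 38.9 and 41.2 TPM (-1.02, SE 0.28). ALS2CL, a regulator of Rab5 GTPases, was at 7.18, 5.97 and 13.8 TPM against 19.4, 27.9 and 36.2 TPM (-1.57, SE 0.35). STAP1, an adaptor of hematopoietic kinases, FGD2, an activator of CDC42 in leukocytes, and B3GNT3, a glycosyltransferase, had log2 differences of -1.58 (SE 0.37), -1.33 (SE 0.35) and -1.54 (SE 0.40), all at low levels and without overlap. Among genes without a symbol, ENSSSCG00000018391 was at 1.03, 2.70 and 0 TPM against 5.97, 6.92 and 13.6 TPM (-2.25, SE 0.45).

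Of the vessel wall markers, ACTA2 and NOTCH3 were lower in Group 1. The 9 pericyte and smooth muscle markers listed summed to 242, 417 and 457 TPM in Group 1 and 462, 529 and 510 TPM in Group 3, and the groups did not overlap, although pigs 30 and 31 lay close together. Of 8 tested, 2 were lower and 0 higher at the unadjusted threshold, beside 1.61% and 1.70% of all genes, and 6 differences were negative and 2 positive (CNN1 at 0.40 and CSPG4 at 0.44, both within the spread), and the median log2 difference was -0.62. ACTA2, smooth muscle actin, was at 15.8, 41.6 and 45.7 TPM against 72.0, 72.9 and 88.1 TPM (-1.28, SE 0.36, unadjusted p = 0.0030), and NOTCH3, the Notch receptor of mural cells, was at 3.62, 2.84 and 7.08 TPM against 5.14, 13.6 and 13.0 TPM (-1.05, SE 0.41, unadjusted p = 0.024). MYH11, the smooth muscle myosin, was listed at 0 in all 6 hearts. Without pig 27 the median was -0.35 and 0 of the 8 passed, and without pig 34 it was -0.34 with 1 lower. Erythroid markers summed to 74.4, 348 and 431 TPM in Group 1 and 227, 379 and 226 TPM in Group 3, and to 72.3 to 136 TPM in the hearts stored statically. The only macrophage marker at the unadjusted threshold was FCGR1A. Of the tested cardiomyocyte, endothelial, fibroblast, lymphocyte, neutrophil, erythroid, platelet, mesothelial, adipocyte and Schwann cell markers 0 passed, beside 1.70% and 1.61% of all genes. These lists held only 1 (adipocyte, Schwann cell) to 10 (endothelial) tested genes, so counts of 0 do not show that these cells were unchanged.

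The NRP + SCS 2 h hearts share NRP with Group 1 and the 2 h duration with Group 3, but were stored statically at another temperature. The levels are set side by side as a description, because the 24 genes were chosen on the other 2 groups. Of the 12 higher genes, 6 had an NRP + SCS 2 h mean nearer to NRP + HOPE 24 h, and 6 nearer to No NRP + HOPE 2 h. The first 6 were PTX3, SELP, SESN2, ALDH1A3, ARHGEF2 and TNC. SELP was at 24.8, 34.4 and 15.1 TPM, SESN2 at 28.8, 17.5 and 13.3 TPM, and ALDH1A3 at 26.4, 26.2 and 22.9 TPM, in each case above all No NRP + HOPE 2 h hearts. The second 6 were IER3, TNFAIP3, SMAD3, CXCL2, RXFP4 and THOC6. IER3 was at 181, 236 and 151 TPM, TNFAIP3 at 15.6, 9.58 and 9.38 TPM, and CXCL2 at 185, 137 and 50.1 TPM, all 3 genes below every NRP + HOPE 24 h heart. Among the 12 lower genes 7 were nearer to NRP + HOPE 24 h, with DNAJB1 at 38.0, 42.5 and 43.5 TPM, the level of Group 1, and 5 were nearer to No NRP + HOPE 2 h, with MYH7B at 247, 187 and 268 TPM. HAS1, in contrast, was at 16.4, 9.88 and 14.6 TPM, below both HOPE groups.

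Over the 190 higher genes at the unadjusted threshold 53.7% had an NRP + SCS 2 h mean nearer to NRP + HOPE 24 h, and over the 180 lower genes 60%, beside 54.7% of all 11164 genes. Both shares were near that of all genes.

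**Figure D5:**
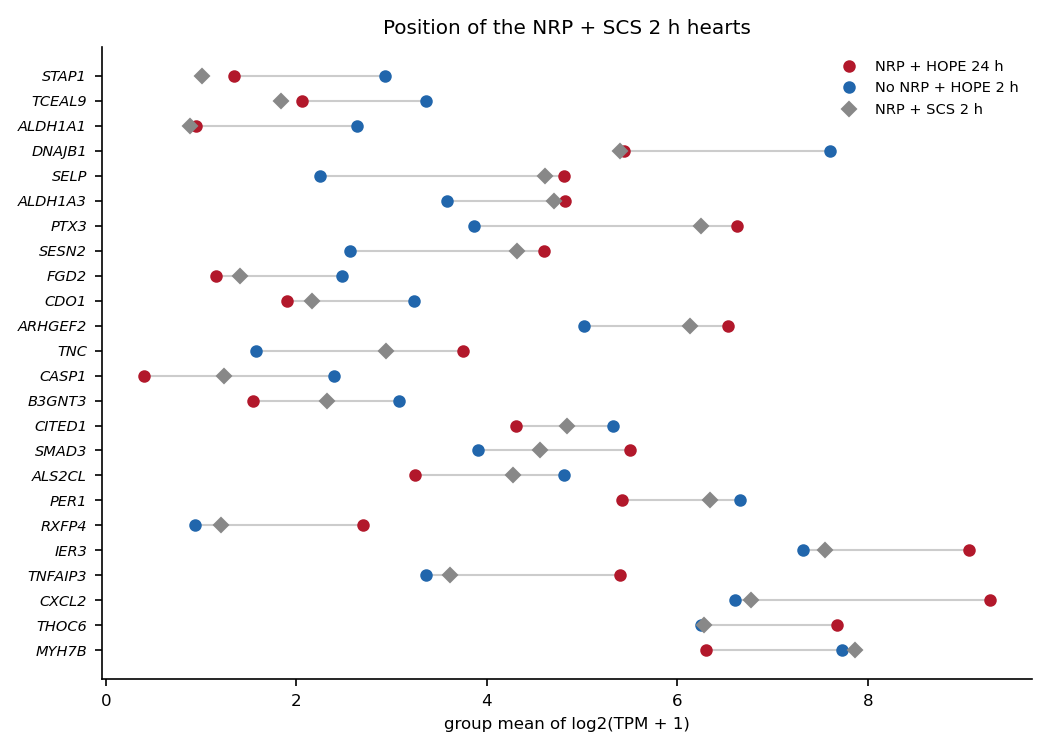
Group means of log2(TPM + 1) for the 12 higher and 12 lower genes with a symbol, 1 gene per line, ordered by where the NRP + SCS 2 h mean (grey diamond) lies between No NRP + HOPE 2 h (blue) and NRP + HOPE 24 h (red). From STAP1 down to CASP1 the 13 genes had the diamond nearer to red, and from B3GNT3 down to MYH7B the 11 genes had it nearer to blue.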

How the data were processed

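Apex biopsies of 9 porcine hearts, 3 per group, were assigned by the pig number in the labels. A further 9 columns were matched to no sample and were not used. Per the labels and methods, mRNA was enriched with oligo(dT), sequenced in pairs of 150 bases, trimmed (Trimmomatic 0.36), mapped with STAR 2.5.2b to an Ensembl pig genome whose build is not given in the sources used here, and counted with featureCounts (Subread 1.5.2). The authors deposited TPM values, which sum to 1000000 per heart over 25149 genes, 12006 of them without a symbol (754 of these were named from an Ensembl table). The authors used DESeq2 on counts. TPM keep no depth, so no counting interval is given, and 0 spike-in rows are listed. A gene listed at 0 may lie under an unknown floor.

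Values were tested as log2(TPM + 1) with limma 3.58.1 (R 4.3.3), 1 mean per group over all 9 hearts, eBayes with trend, two-sided, with Benjamini-Hochberg adjustment over the 11164 genes with 1 TPM in at least 3 of the 6 hearts compared. A log2 difference is on this scale and understates low genes. The fit was tested on simulated data. Single values used exact permutation tests (scipy 1.17.1). The p-values measure the spread between single pigs.

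The comparison, the 26 pathway lists (733 symbols written, 558 in the table, 498 tested) and the 12 marker lists were chosen with earlier results of these data known, and lists were described by counts and medians only. Named genes were, per direction, 12 with a symbol (adjusted calls by size, then the smallest p, with absolute log2 over 1 and no overlap, short RNA loci left out), up to 2 without a symbol, and the 4 largest differences per list. IL1A, CXCL8, TNIP1, TLR4, CD83, HCFC1R1, CNN1, CSPG4, ADGRE1 and the genes so marked were named after their values were seen. Alternatives were another pseudocount, 3 other filters, 3 other scalings, the 6 hearts alone, other variance models and array weights, and each heart left out. Robust eBayes and the gene-by-gene weights were added after seeing the data. RefSeq (Sscrofa11.1) was used for gene neighbours only, and no sequence is shown. Some genes that the naming rule picks are not reported here.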

Additional observations from a re-analysis of the deposited data

How the results depend on the processing

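Main counts were 4 higher and 2 lower genes at the adjusted threshold and 190 and 180 at the unadjusted one. With a pseudocount of 0.1 the adjusted counts were 2 and 1, without mitochondrially encoded genes 2 and 0, after quantile or median-of-ratios normalization 3 and 0, and without a filter, with a mean of at least 5 TPM or without the variance trend 3 and 1. A mean of at least 5 TPM left 6815 genes to test and gave 119 higher and 98 lower at the unadjusted threshold. Array weights gave 249 and 612 adjusted and 287 and 656 unadjusted calls, but their iteration stopped before converging and gave pig 28 a weight of 11.9. The gene-by-gene weights, at most 2.98, gave 17 and 18 adjusted calls and 201 and 480 unadjusted ones. Leaving out 1 heart at a time gave 0 to 12 higher and 0 to 6 lower genes at the adjusted threshold, and 115 (without pig 30) to 371 (without pig 27) higher and 117 (without pig 34) to 495 (without pig 31) lower genes at the unadjusted one. The share of higher among all unadjusted calls was 51.4%, 46.9% to 57.0% under the 3 other scalings and 25.0% to 70.8% without 1 heart. Of the 190 higher genes 100 remained without pig 30, and of the 180 lower genes 77 remained without pig 34.

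Genes without overlap numbered 329 higher and 491 lower, 940 and 887 after median-of-ratios scaling, 907 and 883 after quantile normalization, 532 and 859 without mitochondrially encoded genes, 498 higher without a filter, and 183 and 222 at a mean of at least 5 TPM. The difference in mitochondrially encoded share (-0.22 percentage points) ran from -3.19 to 5.38 without 1 heart and was positive without pig 30 (5.38) or pig 31 (2.45). The causes were not tested. No paired analysis was possible because no pig is shared between the groups. The direction of every gene given with a log2 difference, other than CNN1 and CSPG4, which were not followed, was kept in every alternative. Precision is limited by 3 hearts per group, with a median SE of 0.35 (log2) over the genes tested, and the depth is unknown.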
